A study of Mus musculus with 721 samples.

Results

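Potassium, calcium and sodium channel genes were described in single cells of the embryonic mouse pancreas. Genes were taken by symbol: every entry beginning with Kcn, with Cacna, Cacnb or Cacng, or with Scn followed by a number and a or b, and the sulfonylurea receptor genes Abcc8 and Abcc9. The non-coding Kcnq1ot1 and entries with joined names were left out. This gave 137 genes of 32913 entries in the expression table, with Kcnb2 listed under a pair of entries, the second of which is written Kcnb2-b. Of the 137 genes, 47 had a mean of at least 1 FPKM (a Cufflinks level that counts fragments relative to transcript length and to the depth of the cell) over the kept cells and were tested, 90 lay below that mean, and 2 of these were listed at 0 in every cell. Scn1a, at a mean of 1.01 FPKM, was the lowest gene tested, and Cacna1b, at 0.996 FPKM, was the highest left out.

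Ion channels set the membrane voltage of endocrine cells of the pancreas. In mature beta cells, glucose metabolism raises ATP, which closes the KATP channel built of the pore Kir6.2 (Kcnj11) and the sulfonylurea receptor SUR1 (Abcc8). The membrane then depolarises, voltage-gated calcium channels open, and the calcium that enters triggers the release of insulin, while voltage-gated and calcium-activated potassium channels restore the resting state. Two-pore potassium channels carry a background current, and sodium channels shape the action potential in alpha and beta cells.

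The cells came from pancreata of mouse embryos that carry an eGFP reporter of Neurog3 (Neurogenin 3), the transcription factor that starts endocrine development; the strain and the animals are not named in the labels. Every cell was sorted as a single eGFP-positive cell, and there was no eGFP-negative or wild-type group. Embryonic days E11.5 and E12.5 were sequenced in run 1, and E13.5, E14.5 and E15.5 in both run 1 and run 2, so 5 days gave 8 sets of cells, each 1 day in 1 run. Of 721 cells, 658 were kept, 68 to 94 per set, with 101675 to 1990000 fragments per cell (median 587177) and 1531 to 12309 genes at 1 FPKM or more (median 5571.5). Because no animal is named, each value compared is the mean of a cell state in a set, and p-values measure only the spread between these sets of cells, which may be technical. Cells of 1 day in both runs may come from the same embryos.

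Each cell was placed in 1 state by its marker transcripts, none of them a channel gene. Insulin cells held Ins1 or Ins2 at 100 FPKM or more, glucagon cells held Gcg at 100 FPKM or more, and double cells held both. Of the rest, Neurog3-only cells held Neurog3 at 10 FPKM or more without Fev at that level, Fev-only cells held Fev (a transcription factor of endocrine precursors) without Neurog3, and Neurog3-Fev cells held both. Cells without any of these were called leukocyte-marked or endothelium-marked where at least 3 markers of that cell type reached 10 FPKM, and otherwise other negative cells. This gave 186 Neurog3-only, 86 Neurog3-Fev, 70 Fev-only, 51 glucagon, 57 insulin, 17 double, 41 leukocyte-marked, 13 endothelium-marked and 137 other negative cells. Median depth differed little between the states, from 539776 fragments in Neurog3-Fev cells to 658061 in glucagon cells.

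The labels were checked against 6 endocrine markers (Chga, Chgb, Isl1, Pax6, Neurod1 and Insm1), all of which were present in each of the Neurog3, Fev and hormone states. In the leukocyte-marked cells those 6 markers summed to at most 2.48 FPKM in a set, while 8 of 8 leukocyte markers were present and summed to 9083 to 10560 FPKM. The leukocyte markers define that state, so their level describes it and is no check of it. The other negative cells were mixed: their endocrine markers summed to 19.02 to 9819 FPKM over 7 sets, 5 of 6 acinar or tip markers to 0 to 1311 FPKM, and the epsilon cell hormone gene Ghrl stood at 0 to 8502 FPKM. The other states were not uniform either. Ghrl ran from 0 to 15830 FPKM over the Neurog3-only sets and from 0 to 22300 FPKM over the insulin sets. In Neurog3-only sets the endocrine markers summed to 61.28 to 3011 FPKM. The mature beta cell factor Mafa was listed at 0 in every state but insulin. Between runs, small and predicted RNA genes took 44.95 to 50.2% of FPKM in run 2 and 20.2 to 26.8% in run 1. Channel genes with a high and with a low content of G and C (GC) were both lowest in E12.5 run 1. Over all kept cells, the 14 tested channel genes with at least 55% GC, Kcnk16, Abcc8, Kcnj11 and Kcnh6 among them, had a median log2 level of 1.34 there, against 2.10 to 3.33 in the other sets. The 23 with under 50% GC had 0.932, against 1.26 to 2.33. The E12.5 run 1 set held 21 leukocyte-marked and 13 endothelium-marked cells among its 90, and the part of these in the levels was not tested. The 2 groups parted in E13.5 run 1, where the GC-rich genes had their next lowest median (2.10) and the others their highest (2.33). The GC-rich median was lower in run 1 than in run 2 on E13.5 (2.10 and 3.10) and E14.5 (2.22 and 3.33). On E15.5 it was not (3.26 and 3.19). Transcripts of the Y chromosome were found in 95.89 to 100% of cells of E11.5, E12.5 and E15.5 and in 0% of those of E13.5 and E14.5, so this sign of sex changed with the day, though not in the order of the days. Sex was not a term in the fits, and its part in the results was not tested.

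Kcnk16 had the highest level of any channel gene, at a mean of 296 FPKM over cells, with a transcript (1 FPKM or more) in 542 of 658 cells (82.4%). Kcnk16 (ENSMUSG00000023387.7, mm10 chr14:20262756-20269162, minus strand) encodes TALK-1, a two-pore potassium channel of the islet. The bases upstream of its RefSeq start, and those of Kcne2 and Kcnh6, are shown because their windows differ in the motifs they hold: Kcnk16 and Kcne2 were called in glucagon cells, and Kcnh6 leads its family in level. Capitals mark CAGATG or its reverse CATCTG (an E-box of the kind bound by Neurog3 and Neurod1), CAGCTG (another E-box, its own reverse) and GTTGCC or its reverse GGCAAC (an Rfx half-site); the 3 motifs do not overlap in these windows. The windows are on GRCm38.p6, 250 bases before the start, read 5′ to 3′ on the gene's strand: Kcnk16 at chr14:20269270-20269519 (minus), Kcne2 at chr16:92292139-92292388 (plus, the upstream of 2 listed starts) and Kcnh6 at chr11:106007898-106008147 (plus).
Kcnk16: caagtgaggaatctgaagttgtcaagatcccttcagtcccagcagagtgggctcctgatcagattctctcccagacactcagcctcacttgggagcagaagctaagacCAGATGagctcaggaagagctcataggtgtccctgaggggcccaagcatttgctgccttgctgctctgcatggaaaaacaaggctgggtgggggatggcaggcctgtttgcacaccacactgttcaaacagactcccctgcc
Kcne2: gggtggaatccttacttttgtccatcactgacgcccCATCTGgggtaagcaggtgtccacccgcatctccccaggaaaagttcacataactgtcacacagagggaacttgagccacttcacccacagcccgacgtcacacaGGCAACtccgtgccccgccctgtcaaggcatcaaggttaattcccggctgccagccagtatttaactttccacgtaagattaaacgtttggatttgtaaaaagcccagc
Kcnh6: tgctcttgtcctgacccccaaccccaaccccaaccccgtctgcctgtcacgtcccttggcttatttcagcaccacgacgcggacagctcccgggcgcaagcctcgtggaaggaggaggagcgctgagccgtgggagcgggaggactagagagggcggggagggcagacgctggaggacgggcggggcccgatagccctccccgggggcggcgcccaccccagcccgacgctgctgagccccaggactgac
The Kcnk16 window held 1 CAGATG, the Kcne2 window 1 CATCTG and 1 GGCAAC, and the Kcnh6 window none of the 3. RefSeq lists a second Kcne2 window, at chr16:92295366-92295615, which held none of the 3 either. Among 32851 RefSeq promoter windows of the same length, 14.4% held CAGATG or its reverse, 13% CAGCTG and 10.4% GTTGCC or its reverse, so a single match is common. Of the 47 tested channel genes, 31 matched an entry.

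The levels of the channel genes were unevenly spread over the families. In the two-pore family, 4 of 14 genes passed 1 FPKM (Kcnk16, Kcnk1, Kcnk3 and Kcnk5), and in the inward rectifier family 5 of 15 did, led by Kcnj11 at 29.3 FPKM. Of the Kcnh family, 4 of 8 genes passed, led by Kcnh6 at 33.6 FPKM; of the Kcnq family, 3 of 5 did. Kcnb2, the pore of a delayed rectifier, led the voltage-gated Kcna to Kcnd alpha subunits at 7.61 FPKM, where 3 of 18 entries passed. None of the 10 silent alpha subunits, which only modify other pores, passed, and the highest, Kcnv2, had 0.529 FPKM. Of 17 accessory genes, 9 passed, led by Kcnip3 at 16.4 FPKM and Kcnmb2 at 9.08 FPKM. Among calcium channel genes, 3 of 10 alpha1 pores passed, with Cacna1a (the pore of P/Q-type channels) highest at 15.4 FPKM, as did 2 of 4 alpha2delta genes (Cacna2d1, 22.4 FPKM), 3 of 4 beta genes (Cacnb2, 10.6 FPKM) and 1 of 8 gamma genes (Cacng4, 3.35 FPKM). Sodium channel genes were low: 5 of 10 alpha subunits passed, led by Scn9a at 3.68 FPKM, and 2 of 4 beta subunits, led by Scn2b at 4.09 FPKM. A cell held a median of 13 channel genes at 1 FPKM or more in the Neurog3-only state and 16 in the Neurog3-Fev and glucagon states. The median was 13 in the insulin state, 11 in other negative cells and 6 in leukocyte-marked cells. These medians pool both runs, and the count differed between runs within a state. In Neurog3-only cells the median was 11 in run 1 and 17.5 in run 2 on E13.5, and 11 and 17 on E14.5. In E14.5 run 2, glucagon and insulin cells, at 15 each, stood below Neurog3-only cells. In the other run 2 sets where they had at least 5 cells, they stood above them. The pooled medians are therefore no measure of a state difference. Kcnk16 and Abcc8 together took 46.1% of the summed FPKM of all channel genes in Neurog3-only cells, 62.2% in Fev-only cells, 68.3% in glucagon cells, 76.3% in insulin cells and 4.75% in leukocyte-marked cells.

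Kcnk16 was already high in Neurog3-only cells and higher in glucagon cells. In Neurog3-only cells the set means were 243 FPKM on E11.5, 28.7 on E12.5, 229 and 237 in runs 1 and 2 on E13.5, 144 and 199 on E14.5, and 329 and 155 on E15.5 (196 ± 88.8 FPKM, mean and SD of 8 sets). The glucagon cells held Kcnk16 at 188 FPKM on E12.5, 426 on E13.5 run 2, 423 and 500 on E14.5, and 705 on E15.5 run 2. The 2 ranges overlapped over all sets, but within each of the 5 shared sets the glucagon cells were the higher. Insulin cells held Kcnk16 at 462 FPKM on E14.5 run 2 and at 829.2 and 777 FPKM in runs 1 and 2 on E15.5, all above every Neurog3-only set. Fev-only cells ranged from 290 to 520 FPKM over 6 sets and Neurog3-Fev cells from 133 to 478 FPKM. A Kcnk16 transcript was found in 92.5% of Neurog3-only cells and 98.2% of insulin cells, against 2 of 41 leukocyte-marked cells (4.88%, 95% exact Clopper-Pearson interval 0.596 to 16.5%, which covers counting error only).

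Abcc8, at a mean of 150 FPKM and in 506 of 658 cells (76.9%), separated the states more widely. Abcc8 (ENSMUSG00000040136.9, mm10 chr7:46104523-46180033, minus strand) encodes SUR1, the subunit through which sulfonylurea drugs close the KATP channel. In Neurog3-only cells Abcc8 stood at 156 FPKM on E11.5, 25.1 on E12.5, 38.9 and 42.4 in runs 1 and 2 on E13.5, 58.7 and 56.3 on E14.5, and 60.5 and 43.7 on E15.5. The E11.5 value is a mean of 7 cells, 1 of which carried at least 3 leukocyte markers, and stood above the other 7 sets. Neurog3-Fev cells held Abcc8 at 148 and 136 FPKM on E13.5, 118 and 160 on E14.5, and 242 and 197 on E15.5. Fev-only cells held it at 281 and 299, 220 and 141, and 248 and 142 FPKM on the same days and runs. Both states carrying Fev lay above the Neurog3-only cells of their own set in all 6 sets, and the Fev-only values were lowest in run 2 of E14.5 and of E15.5. Glucagon cells held Abcc8 at 208 FPKM on E12.5, 222 on E13.5 run 2, 328 and 398 on E14.5, and 401 on E15.5 run 2. Insulin cells held it at 344 FPKM on E14.5 run 2 and at 405 and 355 FPKM on E15.5. Neither hormone state overlapped the Neurog3-only sets. The share of cells with an Abcc8 transcript was 67.2% of Neurog3-only cells (interval 59.95 to 73.9%), 98.8% of Neurog3-Fev, 98.6% of Fev-only, 51 of 51 glucagon and 98.2% of insulin cells, and 2.44% of leukocyte-marked cells.

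Kcnj11, the pore that partners Abcc8, was lower and seen in fewer cells: a mean of 29.3 FPKM and 242 of 658 cells (36.8%). The Kcnj11 entry (ENSMUSG00000096146.1, mm10 chr7:46098725-46099897) spans only 1173 bases in the deposited file, so fragments of the rest of the transcript are not counted in its level. The gene lies next to Abcc8 on the same strand, with 3758 bases between the annotated genes. In Neurog3-only cells Kcnj11 stood at 47.3 FPKM on E11.5, 0 on E12.5 (7 cells), 28.4 and 17.1 in runs 1 and 2 on E13.5, 33.6 and 12.2 on E14.5, and 34.7 and 8.24 on E15.5. Fev-only cells held Kcnj11 at 100 and 14.1 FPKM on E13.5, 70.2 and 21.3 on E14.5, and 75.3 and 25.9 on E15.5. In both states run 1 was the higher on each of those 3 days. Insulin cells held Kcnj11 at 59.9 FPKM on E14.5 run 2 and at 60.5 and 46.03 on E15.5, while glucagon cells held 5.27 FPKM on E12.5, 39.9 on E13.5 run 2, 43.3 and 12.2 on E14.5, and 19.98 on E15.5 run 2. Insulin cells lay above the glucagon cells of both shared sets. A Kcnj11 transcript was found in 28.5% of Neurog3-only cells (22.1 to 35.6%), 52.3% of Neurog3-Fev, 52.9% of Fev-only, 37.3% of glucagon and 68.4% of insulin cells (54.8 to 80.1%), and in 0 of 41 leukocyte-marked cells, which allows a share of up to 8.604%. Of the 242 cells with Kcnj11, 230 also held Abcc8 (95.04%), while 45.5% of the cells with Abcc8 held Kcnj11. The high share is not particular to this pair, as 97.1% of the cells with Kcnj11 held Kcnk16. The leukocyte-marked cells, with a median of 593693 fragments, give the share found for each of these genes in a cell type that lacks the endocrine markers.

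The other KATP pair, Kcnj8 (Kir6.1) and Abcc9 (SUR2), known from vascular smooth muscle and pericytes, was low in these cells. Kcnj8 was present in 24 cells and Abcc9 in 46 of 658, and no cell held both. Abcc9 stood at 9.40 FPKM in the 13 endothelium-marked cells, 7 of which held it (53.8%, 25.1 to 80.8%), and its set means were at most 0.911 FPKM in every other state. All 13 endothelium-marked cells came from E12.5 run 1, so this state has 1 set and no test. Of 6 mesenchyme or pericyte markers, Col3a1, Pdgfrb and Rgs5 were listed at 0 in those cells and the others were not. The 6 markers summed to 247.5 FPKM there, and 1 of them had a mean of at least 1 FPKM. Which cells the Abcc9 transcripts came from was not tested.

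**Figure D1:**
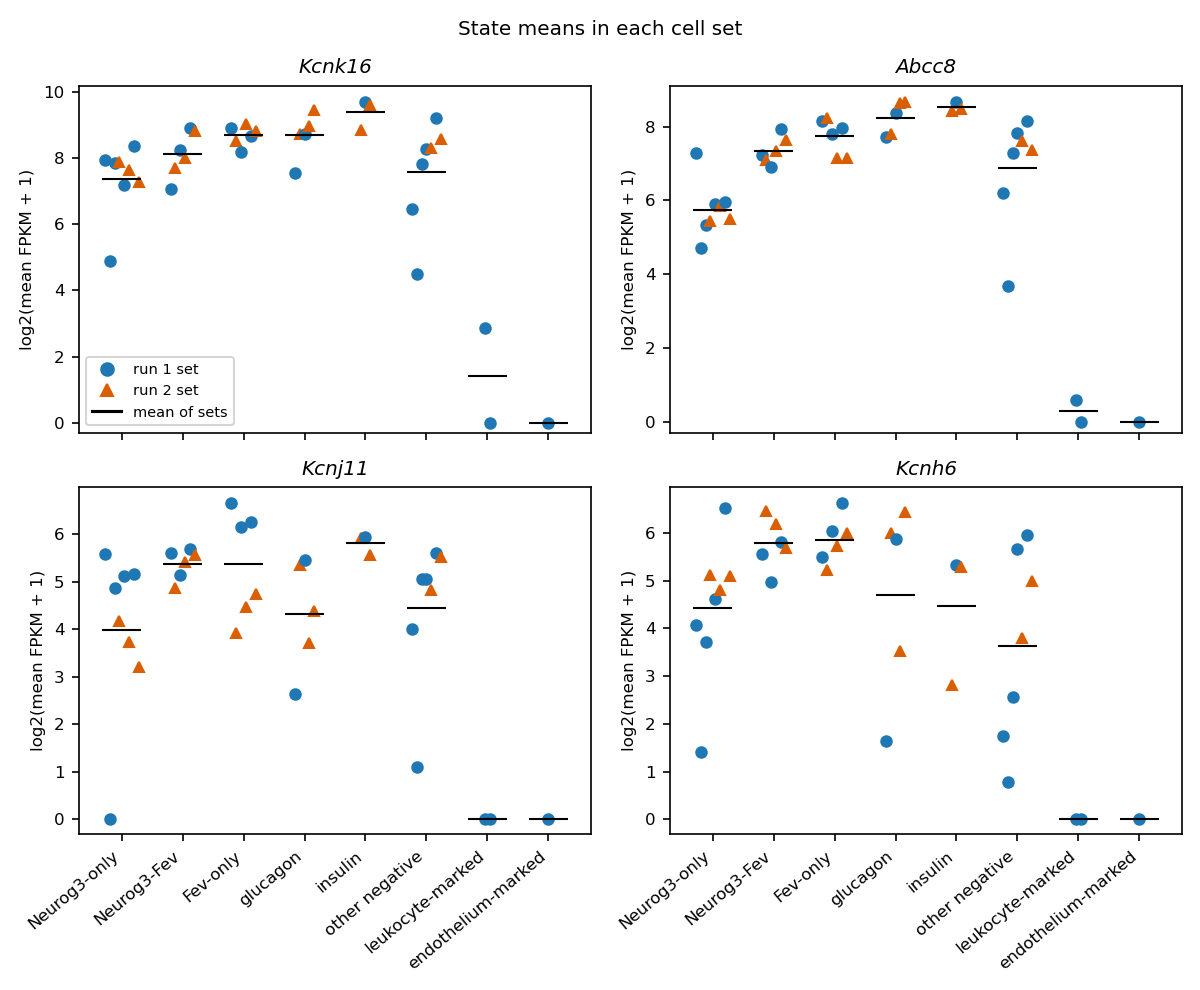
Level of Kcnk16, Abcc8, Kcnj11 and Kcnh6 (vertical axis, log2 of mean FPKM + 1) by cell state, 1 point per set of at least 5 cells, circles for run 1, triangles for run 2 and a line for the mean of the sets. The Abcc8 points of the glucagon (208 to 401 FPKM) and insulin (344 to 405 FPKM) states lie above every Neurog3-only point (25.1 to 156 FPKM).

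Differences between states were tested in 1 limma model over all states with at least 5 cells in a set, on log2(mean FPKM + 1), with the set as a block and Benjamini-Hochberg adjustment over 16117 genes. A fold change is on that scale, so the change of a gene with low FPKM is understated. Comparisons against Neurog3-only cells share those control sets, so their values are given side by side and are not independent.

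Abcc8 was the only channel gene called in insulin cells against Neurog3-only cells. Its level was 5.51-fold higher, a log2 difference of 2.46 ± 0.48 (SE, 95% interval 1.47 to 3.46, limma adjusted p = 0.00575), and higher in 3 of 3 shared sets. This was 1 of 47 tested channel genes (2.13%), beside 1.69% of all genes called higher and 2.19% called in either direction. Kcnk16 (log2 difference 1.31 ± 0.39, adjusted p = 0.0880, interval 0.50 to 2.12) and Kcnj11 (1.49 ± 0.59, adjusted p = 0.238, interval 0.27 to 2.71) were higher in 3 of 3 sets and did not pass the adjusted threshold of 0.05. The median log2 difference of the 47 genes was -0.07, beside 0.03 for all genes. The Abcc8 call was lost without E14.5 run 2 (adjusted p = 0.060), E15.5 run 1 (0.053) or E15.5 run 2 (0.11), which are the only sets with insulin cells, and in run 1 alone, where 1 insulin set is left (log2 difference 2.08, adjusted p = 0.72). It was also lost with hormone states set at 10 FPKM (1.70, adjusted p = 0.24).

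In glucagon cells Abcc8, Kcnk16 and Kcne2 rose against Neurog3-only cells, each in 5 of 5 shared sets. Abcc8 was 6.46-fold higher (log2 difference 2.69 ± 0.40, interval 1.88 to 3.51, adjusted p = 0.00013) and Kcnk16 2.88-fold higher (1.53 ± 0.32, interval 0.86 to 2.19, adjusted p = 0.00483). The Kcnk16 call was lost in 5 of 20 alternatives: with at least 300000 fragments per cell (1.10, adjusted p = 0.17), with FPKM rescaled without predicted, small RNA and mitochondrial genes (0.93, 0.11), in run 1 alone (1.87, 0.18), in run 2 alone (1.45, 0.056) and with hormone states at 10 FPKM (0.85, 0.32). Kcne2, an accessory beta subunit of potassium channels (ENSMUSG00000039672.6, mm10 chr16:92292389-92298129), was 4.29-fold higher (2.10 ± 0.60, adjusted p = 0.0393). These were 3 of 47 channel genes (6.38%), beside 3.42% of all genes called higher and 4.47% called in either direction, and no channel gene was called lower; with the rescaled FPKM, 2 were called higher and 1 lower. Kcne2 rested on few cells: its glucagon set means of 6.03, 1.28, 9.08, 16.9 and 2.51 FPKM came from 1 or 2 positive cells in each set, and 9 of 51 glucagon cells (17.6%) held it against 6 of 186 Neurog3-only cells (3.23%). Its call was lost in 12 of 20 alternatives, among them without E12.5 run 1 (adjusted p = 0.10), E14.5 run 1 (0.11), E14.5 run 2 (0.20) or E15.5 run 2 (0.080), and the log2 difference was 1.00 (adjusted p = 0.66) with at least 10 cells per state and set. At E12.5, 1 of the 5 glucagon cells carried at least 3 leukocyte markers. Without such cells, by limma, Kcnk16 differed by 1.13 (adjusted p = 0.040) and Kcne2 by 1.95 (adjusted p = 0.088). That removal left the E12.5 glucagon state below 5 cells, so the fit lost this whole glucagon set as well. Kcnj11 did not pass in glucagon cells (0.71 ± 0.49, adjusted p = 0.477, interval -0.29 to 1.72).

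The Fev-only cells, which follow Neurog3 expression in endocrine development, held more Abcc8 than Neurog3-only cells, by 3.44-fold (log2 difference 1.78 ± 0.38, interval 1.01 to 2.55, adjusted p = 0.00711), in 6 of 6 sets. This was 1 of 47 channel genes (2.13%), beside 1.34% of all genes called higher and 3.25% called in either direction; with the rescaled FPKM, 1 was called higher and 2 lower. The call was lost without E13.5 run 1 (1.60, adjusted p = 0.055) or E13.5 run 2 (1.58, adjusted p = 0.054). Among accessory genes that lay the other way, these did not pass: Kcnip3 (-2.25 ± 0.68, adjusted p = 0.0672) and Kcne1l (-1.97 ± 0.62, adjusted p = 0.0832), each lower in 6 of 6 sets. Kcne1l, a beta subunit, was found in 0 of 70 Fev-only cells, which allows up to 5.13%, against 22 (11.8%) of 186 Neurog3-only cells. Over the 8 Neurog3-only sets Kcne1l stood at 0 to 10.1 FPKM, and the Fev-only value of 0 was shared by 2 of those sets, E11.5 and E12.5. Kcnip3, a calcium-binding subunit of Kv4 channels, ran from 0 to 31.01 FPKM over the Fev-only sets and from 0 to 44.9 FPKM over the Neurog3-only sets.

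**Figure D2:**
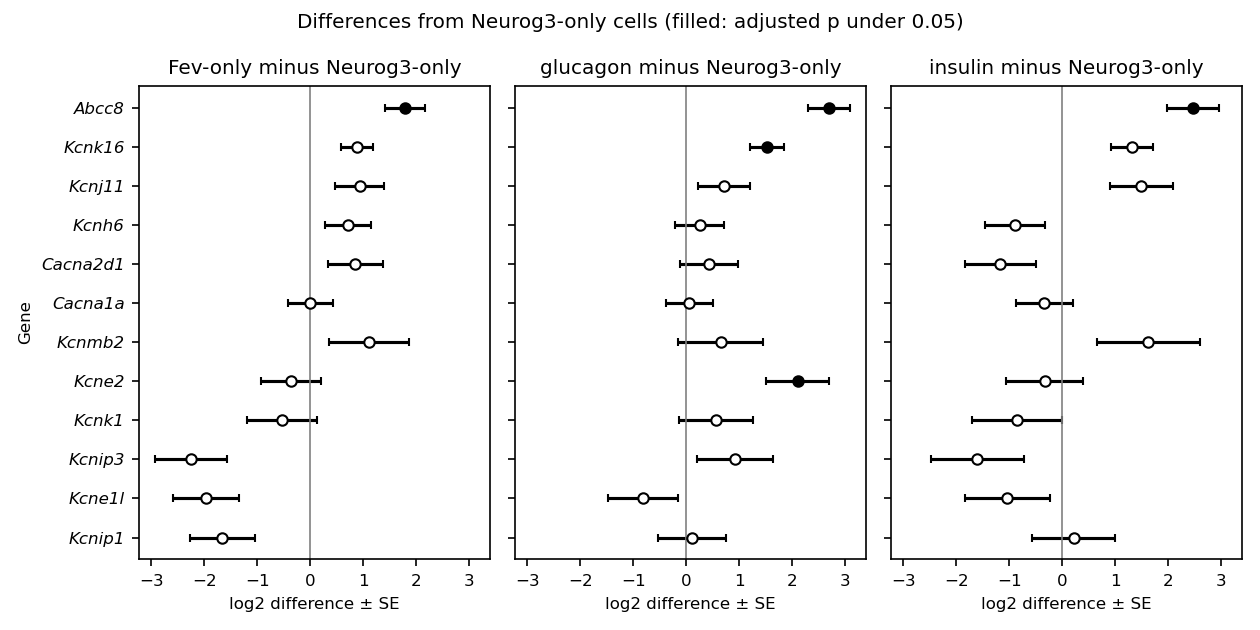
Log2 differences of Fev-only, glucagon and insulin cells from Neurog3-only cells (horizontal axis, limma, log2 of mean FPKM + 1) for named channel genes, with bars of 1 standard error and filled points for adjusted p under 0.05. Abcc8 is filled in the glucagon, insulin and Fev-only comparisons, at 2.69, 2.46 and 1.78, and Kcnk16 in the glucagon one, at 1.53.

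No channel gene passed the test between insulin and glucagon cells. By limma, 0 of 47 were called, and 4 had an unadjusted p under 0.05, beside 0.205% and 7.99% of all genes. Those 4 were lower in insulin cells in both shared sets (2.98% of all genes had an unadjusted p under 0.05 in that direction): Kcne2 (-2.43 ± 0.78, adjusted p = 0.302), Kcnip3 (-2.53 ± 0.95, adjusted p = 0.410), Cacna2d1 (-1.60 ± 0.73, adjusted p = 0.583) and Cacnb2 (-1.70 ± 0.83, adjusted p = 0.624). Kcnj13, an inward rectifier whose exons overlap those of Gigyf2 on the other strand and whose value is therefore uncertain, differed by 1.85 (adjusted p = 0.731). With 3 insulin and 5 glucagon sets, the interval of the Abcc8 difference was -1.30 to 0.85. That of Kcnk16 was -1.09 to 0.66 and that of Kcnj11 -0.55 to 2.09. These are not limits of detection: larger differences, such as that of Kcnip3 (-2.53), were not called either. On simulated data, log2 differences of 2 and 4 were recovered in 24 and 70% of cases in this comparison.

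Kcnh6, Cacna1a and Cacna2d1, which encode the potassium pore Kv11.2 and the pore and an auxiliary subunit of calcium channels, were found in most cells that carry Fev. Kcnh6 (ENSMUSG00000001901.9, mm10 chr11:106008124-106034549) was found in 88.4% of Neurog3-Fev cells (interval 79.7 to 94.3%) and 77.1% of Fev-only cells, against 52.7% of Neurog3-only, 70.6% of glucagon and 49.1% of insulin cells. Cacna1a (ENSMUSG00000034656.10, mm10 chr8:84415364-84640246) was found in 81.4% and 78.6% of those 2 Fev states, 57.5% of Neurog3-only, 49.02% of glucagon and 57.9% of insulin cells. Cacna2d1 was found in 91.9% and 91.4%, 72.04%, 74.5% and 66.7%. These shares are descriptions: the states hold cells from different sets, and a test of the means found no called difference for any of the 3 in Fev-only against Neurog3-only cells (log2 differences 0.71, 0.00 and 0.85, adjusted p = 0.480, 1.000 and 0.482). The set means of Kcnh6 in Neurog3-only cells ran from 1.64 FPKM on E12.5 to 90.98 FPKM on E15.5 run 1, and in Fev-only cells from 36.2 to 98.2 FPKM. Those of Cacna1a ran from 2.69 to 34.2 FPKM in Neurog3-only cells and from 5.65 to 31.4 FPKM in Fev-only cells, so the ranges overlapped for both genes. Cacna2d1 stood at 0.649 FPKM in Neurog3-only cells of E12.5 and at 17.4 to 31.3 FPKM in the other 7 sets, and at 25.7 to 84.3 FPKM in Fev-only cells. Of 347 cells with Cacna1a, 285 also held Cacna2d1 (82.1%).

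**Figure D3:**
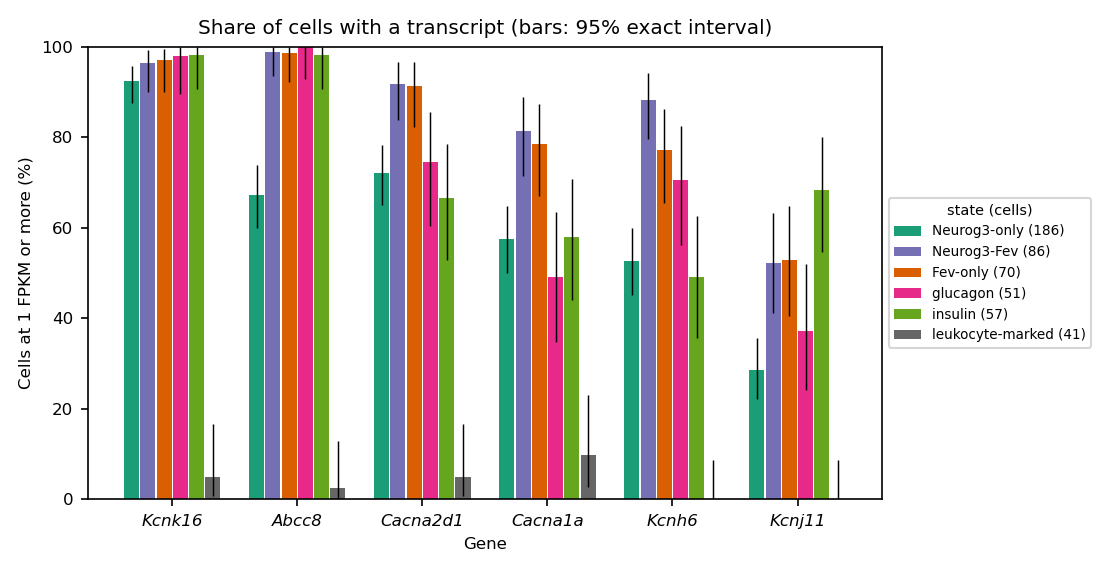
Percentage of cells in which a gene reached 1 FPKM (vertical axis, %, bars from 0) for 6 channel genes by cell state, with 95% exact Clopper-Pearson intervals as black lines. Abcc8 is at 67.2% in Neurog3-only, 98.8% in Neurog3-Fev and 2.44% in leukocyte-marked cells, and Kcnj11 is at 28.5% in Neurog3-only and 68.4% in insulin cells.

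The remaining named channel genes had no called difference in the 4 comparisons of Neurog3, Fev and hormone states. Kcnmb2, a beta subunit of BK channels, was found in 54.4% of insulin cells (40.7 to 67.6%) and 10.2% of Neurog3-only cells (6.26 to 15.49%). Its set means were 9.68 to 20.8 FPKM over 3 insulin sets and 0.583 to 8.94 FPKM over 8 Neurog3-only sets, which did not overlap, yet the limma difference did not pass (adjusted p = 0.526). The BK pore Kcnma1 was found in 29.6% of Neurog3-only and 17.5% of insulin cells, and 36 of 658 cells held both it and Kcnmb2. Kcnk1 (TWIK-1) was found in 52.9% of glucagon and 24.6% of insulin cells, with set means of 11.8 to 79.2 and 5.58 to 13.8 FPKM that overlapped. Kcnb2 stood between 0 and 16.01 FPKM over the Neurog3-only sets and between 0.613 and 11.6 FPKM over the insulin sets. Scn9a and Scn3a, sodium channel pores, were found in 13.4% and 16.1% of Neurog3-only and 17.5% and 28.1% of insulin cells. Scn3a differed between those states by 1.37 in log2 (adjusted p = 0.305). Scn2b, a beta subunit, was found in 39.2% of glucagon and 20.97% of Neurog3-only cells. Cacng4 was found in 23.5% of glucagon and 3.51% of insulin cells, with set means of 0.633 to 28.8 and 0 to 3.25 FPKM. Kcnip1 shares its locus with Kcnmb1 on the other strand, and without strand marking its value (2.56 FPKM) is uncertain, though their annotated exons do not overlap. Exons of Kcnk1, Kcnk3, Cacna1a, Cacnb2, Kcnma1 and Scn9a do overlap those of a gene on the other strand, so their values are uncertain too. The other 25 tested entries had means from 1.01 FPKM (Scn1a) to 7.04 FPKM (Kcnh2) and were found in 3.34 to 44.4% of cells. None of the 25 was called by limma in any of the comparisons, and 11 (44%) had an unadjusted p under 0.05 in at least 1 of the 8, beside 56.2% of all genes.

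Kcnk16, Abcc8, Kcnj11, Kcnk3 and Kcnk1 were lower in leukocyte-marked cells than in other negative cells, and Kcnab2 was higher. These were 6 of 47 channel genes (12.8%) beside 7.68% of all genes (3.83% called lower and 3.85% higher), each in 2 of 2 shared sets. Other negative cells also held endocrine and acinar or tip markers, at summed levels that differed between sets as given above, and the part of that mix in these differences was not tested. Kcnk16 stood at 6.25 FPKM on E11.5 and 0 on E12.5 in leukocyte-marked cells, and at 87.1 and 21.4 FPKM in other negative cells of those sets (log2 difference -4.90 ± 0.49 in the fit over all sets, adjusted p = 3.52e-08). Abcc8 stood at 0.499 and 0 FPKM, against 72.9 and 11.9 FPKM (-5.93 ± 0.60, adjusted p = 4.38e-08). Both were called in each of 19 alternatives. Both fitted differences exceed those within either of the 2 shared sets. The fit also draws on other negative cells of later sets, in which no leukocyte-marked state entered. The size and p-value of each therefore rest on more than the shared sets. Kcnj11 was listed at 0 in both leukocyte-marked sets (-3.07 ± 0.74, adjusted p = 0.00599) but did not pass without E11.5 run 1 (-1.45, adjusted p = 0.56). Kcnk3 (TASK-1; -3.24 ± 0.86, adjusted p = 0.0137) and Kcnk1 (-3.52 ± 1.05, adjusted p = 0.0349), both background channels, were lower too. Of 19 alternatives, the Kcnj11 call held in 15, that of Kcnk3 in 13 and that of Kcnk1 in 9. Kcnk1 lost its call without E11.5 run 1 (adjusted p = 0.47), E12.5 run 1 (0.22), E13.5 run 2 (0.066), E14.5 run 1 (0.069), E14.5 run 2 (0.076) or E15.5 run 2 (0.052), and Kcnk3 without E11.5 run 1 (0.20) or E12.5 run 1 (0.12). Kcnab2, a beta subunit of Kv1 channels, was the gene that was higher (3.00 ± 0.73, adjusted p = 0.00692), at 8.85 FPKM (9 of 19 cells) on E11.5 and 5.96 FPKM (6 of 21 cells) on E12.5, where other negative cells stood at 0 to 0.503 FPKM over 7 sets. In all, 16 of 41 leukocyte-marked cells held Kcnab2 (39.02%, 24.2 to 55.5%) and 6 of 137 other negative cells (4.38%). The Kcnab2 call was lost without E11.5 run 1 (adjusted p = 0.17) or E12.5 run 1 (0.078), which are the only 2 leukocyte-marked sets. The Kcnab2 mean over all kept cells was 1.07 FPKM, just past the limit of 1 FPKM for testing. Leukocyte-marked cells count in that mean. Kcnab2 thus entered the test partly through the state where it was higher, so its call is not independent support.

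Over embryonic day, no channel gene passed the test of a slope. By limma with day and run as terms, 0 of 47 passed over all kept cells, beside 0% of all genes, and 10 had an unadjusted p under 0.05, 9 of them upward, beside 11.8% of all genes in either direction and 4.75% upward. The slopes of 39 of the 47 channel genes were positive, beside 53.7% of all genes. Kcnh6 had the steepest, 0.95 ± 0.31 in log2 per day (adjusted p = 0.321), with set means of 5.52 FPKM on E11.5, 0.588 on E12.5, 19.2 and 52.1 on E13.5, 37.9 and 31.3 on E14.5, and 70.96 and 46.8 on E15.5. Kcnip1 sloped by 0.73 ± 0.17 (adjusted p = 0.260). Kcnk16, at 136 FPKM on E11.5, 23.6 on E12.5 and 519 to 553 FPKM on E15.5, sloped by 0.69 ± 0.27 (adjusted p = 0.367). For Abcc8 the set means were 93.8 FPKM on E11.5, 22.4 on E12.5 and 239 to 258 FPKM on E15.5, with a slope of 0.52 ± 0.21 (adjusted p = 0.379). The early sets held 40 of the 41 leukocyte-marked cells (19 on E11.5 and 21 on E12.5), so the day and the make-up of the sets moved together; what part that had in the slopes was not tested over all cells. Within Neurog3-only cells, 0 of 47 passed, beside 0% of all genes, and 5 had an unadjusted p under 0.05, beside 6.6% of all genes. The steepest there were Kcnip3 (1.27 ± 0.46, adjusted p = 0.737), Kcnip1 (0.86 ± 0.21, adjusted p = 0.720) and Kcne1l (0.72 ± 0.25, adjusted p = 0.737). Kcnip3 and Kcne1l were listed at 0 in the 7 Neurog3-only cells of E11.5 and in the 7 of E12.5. Abcc8 sloped by -0.12 ± 0.22 and Kcnk16 by 0.21 ± 0.31 within that state.

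Between runs at stages E13.5 to E15.5, 0 of 47 channel genes passed by limma, beside 0.366% of all genes, and 5 had an unadjusted p under 0.05, beside 15.2%. Kcnj11 was lower in run 2 in 3 of 3 days (-0.65 ± 0.19, adjusted p = 0.297), at 23.6, 25.6 and 32.5 FPKM in run 2 and 42.1, 39.6 and 47.6 in run 1. Kcnh2, another pore of the Kcnh family, was higher in run 2 in 3 of 3 days (1.83 ± 0.47, adjusted p = 0.276). Kcnk16 and Abcc8 differed by 0.13 ± 0.21 and 0.08 ± 0.19. Whether state differences differed between runs was not tested.

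**Figure D4:**
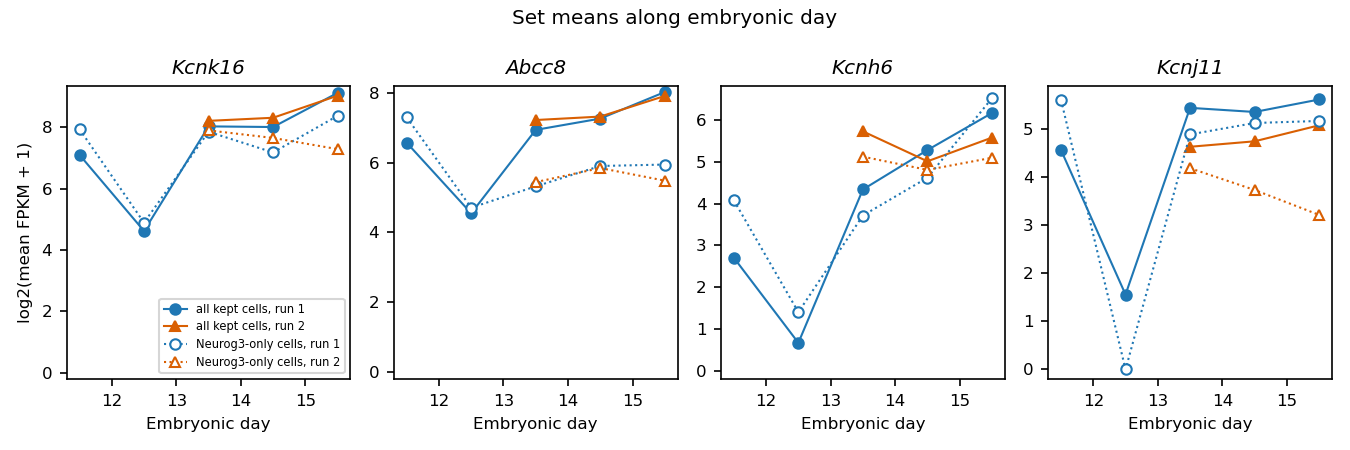
Level of Kcnk16, Abcc8, Kcnh6 and Kcnj11 (vertical axis, log2 of mean FPKM + 1) against embryonic day (horizontal axis), 1 point per set, circles for run 1 and triangles for run 2, filled for all kept cells and open for Neurog3-only cells. Over all kept cells E12.5 run 1 is the lowest set for Kcnk16 (23.6 FPKM), Abcc8 (22.4 FPKM) and Kcnh6 (0.588 FPKM).

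A list of other genes of glucose sensing, calcium handling and secretion was chosen with earlier results of these data known. It includes Slc2a2, which is also in the list of beta cell markers. Its shares of called genes are therefore descriptions and no test of the list. Among its 39 tested genes, 5 rose in insulin cells against Neurog3-only cells (12.8%, beside 1.69% of all genes called higher). They were the glucose-6-phosphatase subunit G6pc2 (6.70 ± 0.99, adjusted p = 0.00049), the glucose transporter Slc2a2 (5.55 ± 0.84, adjusted p = 0.00064), the incretin receptor Glp1r (4.25 ± 0.73, adjusted p = 0.00198), the exocytosis protein Stx1a (3.09 ± 0.63, adjusted p = 0.00761) and the adrenergic receptor Adra2a (2.48 ± 0.65, adjusted p = 0.0403). In glucagon cells 4 rose (10.3%, beside 3.42% of all genes): G6pc2 (5.13), the active zone protein Rims2 (2.10), the calmodulin kinase Camk2b (2.03) and the incretin receptor Gipr (1.78). In Fev-only cells Gipr (1.92) and Camk2b (1.75) rose and the adenylyl cyclase Adcy5 fell (-1.88), 3 of 39 (7.69%) beside 3.25% of all genes. Slc2a2 alone was called between insulin and glucagon cells, higher by 5.71 (2.56%, beside 0.205%). Against other negative cells, 6 of the 39 (15.4%, beside 3.83%) were lower in leukocyte-marked cells, among them Snap25 (-4.26), and 2 (5.13%, beside 3.85%) were higher, among them Camk2d (2.89). By limma, none of the 39 passed along day over all kept cells, and 14 (35.9%) had an unadjusted p under 0.05, beside 11.8% of all genes.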

How the data were processed

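Single eGFP-positive cells of embryonic mouse pancreas were prepared by SMART-seq and Nextera XT, per the labels' protocols. The authors deposited FPKM per gene and cell; TopHat2 2.0.13, Cufflinks 2.2.0 and mm10 are named in the submitters' processing notes, with the annotation not given in the sources used here. Depth is the labels' total of fragments; SMART-seq marks neither molecules nor strand. Cells with at least 100000 fragments and 1500 genes at 1 FPKM were kept. Column names matched every cell, with 0 columns left over.

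State means were compared on log2(mean FPKM + 1) with limma 3.58.1 in R 4.3.3 (intensity trend, two-sided, 23 residual degrees of freedom); tables and figures used Python 3.11.15, pandas 2.3.3 and matplotlib 3.10.9. Genes at a mean of at least 1 FPKM entered. The 39 genes of sensing and secretion and the cell markers were lists; these and the channel genes were chosen with earlier results of these data known. Values are given for Kcnj11, Abcc8, Kcnj8 and Abcc9, for members past adjusted p 0.05 in a comparison (or the 3 with the largest differences where none passed), for the 10 with the highest means and for the leader of each family; Scn3a, Kcnh2, Kcnv2 and Cacna1b were added after their values were seen or mark a limit. Values of some genes that meet this rule are not reported here. On simulated data with 200 changed genes among 16117, log2 differences of 2 and 4 were recovered in 36 and 82% of cases for insulin against Neurog3-only cells, 41 and 90% for glucagon, 52 and 95% for Fev-only, 24 and 70% for insulin against glucagon, and 19 and 62% for leukocyte-marked cells. Gene annotation (GENCODE vM21) named 136 of the 137 genes by identifier. Promoters are RefSeq's, GRCm38.p6.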

Additional observations from a re-analysis of the deposited data

Results flagged for a closer look

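In 35 groups of 4 to 10 set means of the channel genes called in a comparison (Kcnj11 among them), 9 held a value far from the others of its group; chance alone flags about 1 group in 20. Of these, 3 fell on E12.5 run 1. Kcnk16 in Neurog3-only cells was at 28.7 FPKM there (3 of 7 cells positive), where the next lowest set was 144 FPKM. Kcnj11 was listed at 0 in the same 7 cells, with 8.24 FPKM the next lowest, and stood at 1.16 FPKM in other negative cells of that set (3 of 41), with 15.1 FPKM next. Over all cells, channel genes of high and of low GC content were both lowest in that set, and what set it apart was not tested.

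The remaining values rested mostly on few cells. Kcnab2 was at 4.87 FPKM in Neurog3-only cells of E14.5 run 2 (5 of 31 cells; next 0.9753) and at 13.8 FPKM in Neurog3-Fev cells of E13.5 run 1 (1 of 8 cells; next 1.56). Kcne2 was at 5.14 FPKM in Neurog3-only cells of E15.5 run 1 (2 of 28 cells; next 1.29) and at 2.53 FPKM in Fev-only cells of E14.5 run 2 (1 of 11 cells; next 0.145). Kcnk1 was listed at 0 in the 11 other negative cells of E13.5 run 1, with 9.38 FPKM next. Kcnk3 was listed at 0 in the 5 glucagon cells of E14.5 run 2, with 3.44 FPKM next.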

How the results depend on the processing

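Across the alternatives, 120 counts and 505 single-gene differences kept their direction and their side of the threshold, 49 differences lost a call, 20 gained one and 31 counts moved by over 1.5 times; 8 single-gene differences, none of them called, changed sign. The count of channel genes called in insulin against Neurog3-only cells (1) was 2 with no filter on low values, 3 with means of log2 values, 2 without E12.5 run 1 and E13.5 run 1, 0 with hormone states at 10 FPKM, 2 with at least 10 cells per state and set, and 0 to 2 when 1 set was left out. In glucagon cells (3) it was 5 with means of log2 values, 1 with at least 300000 fragments, 0 in run 1 alone, 1 in run 2 alone and 1 with hormone states at 10 FPKM. In Fev-only cells (1) it was 5 with means of log2 values, 2 with at least 300000 fragments, 3 with FPKM rescaled without predicted, small RNA and mitochondrial genes, 0 in run 1 alone, 0 in run 2 alone, 5 with at least 10 cells, and 0 to 4 with 1 set left out. Between insulin and glucagon cells (0) it was 1 with means of log2 values and 1 in run 1 alone. In leukocyte-marked cells (6) it was 3 with a pseudocount of 10 FPKM, 3 in run 1 alone and 2 to 7 with 1 set left out. Runs alone, left-out sets, the 10-cell minimum and the removal of cells with leukocyte or endothelium markers leave fewer sets. For the other alternatives the cause was not tested. Between insulin and glucagon cells the Abcc8 difference changed sign to 0.12 with means of log2 values, 0.18 with at least 300000 fragments, 0.055 in run 2 alone and 0.19 with at least 10 cells. There the Kcnj11 difference became -0.24 in run 1 alone and -0.17 with hormone states at 10 FPKM, and that of Kcnip3 became 0.61. The Kcnip3 slope in Neurog3-only cells became -0.21 with at least 10 cells. Kcnk16 in glucagon cells did not pass with at least 300000 fragments (1.10, adjusted p = 0.17), with rescaled FPKM (0.93, 0.11), in run 1 alone (1.87, 0.18), in run 2 alone (1.45, 0.056) or with hormone states at 10 FPKM (0.85, 0.32). Rescaling moved the median of all genes from -0.05 to -0.26 in glucagon against Neurog3-only cells, from 0.03 to -0.22 for insulin, from -0.02 to -0.25 for leukocyte-marked cells and from -0.08 to 0.21 between runs; the rescaled Kcnk16 value of 0.93 stands beside that median of -0.26. Kcnk16 in insulin cells passed in 3 of 20 alternatives. Removing cells with leukocyte or endothelium markers, and 1 cell of an E14.5 pair alike across runs (r = 0.852, next 0.720), were alternatives chosen after seeing the data. No paired analysis was possible because the labels give no animal or replicate number across groups by which to pair; instead, states were compared within sets, with the set as a block, and runs within days.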

Other observations

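Other negative cells are those below the thresholds for Neurog3, Fev, Gcg, Ins1 and Ins2, and some hold other hormones such as Ghrl. On E11.5 the 39 of them held Kcnk1 at 56 FPKM (29 cells positive), against 0 to 30.9 FPKM in the other 6 sets of that state. Scn2b stood at 16.6 FPKM in the same cells, the highest of its 7 other negative sets; neither value was tested.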
